A study of Mus musculus with 18 samples.

Results

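The glutathione and NRF2 target genes are 37 mouse genes that make glutathione, attach it to other molecules, spend it on peroxides or keep it reduced, together with Nfe2l2, the gene of the transcription factor NRF2, and Keap1, the gene of its inhibitor. A member is defined by its gene symbol, on a list drawn up when earlier results of these data were known, and all 37 symbols were found, once each, among the 54532 genes of the expression table. The list holds 19 soluble glutathione transferases, 3 membrane-bound (microsomal) transferases, 4 genes of glutathione synthesis and cystine supply, 5 genes of thiol reduction and NADPH supply, 4 glutathione peroxidases and the 2 regulators. RNA was sequenced from 3 kinds of primary cell isolated from mouse livers after bile duct ligation (BDL), which ties off the bile duct so that bile backs up into the liver, or after sham surgery (Sham). The cells are primary hepatocytes (MPH), the parenchymal cells of the liver, biliary epithelial cells (BECs), the lining of the bile ducts, and Kupffer-like cells (Kupffer). The last are labelled by their likeness to Kupffer cells, the resident liver macrophages. Each cell type has 3 BDL and 3 Sham libraries, 18 in all, and hepatic stellate cells, which the study also isolated, were not analysed here. The labels give neither strain, genotype, age nor sex, nor the time after ligation, nor the isolation method. They do not say whether libraries of a group come from separate mice, so a p-value here refers to the spread among these libraries only.

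Glutathione is a tripeptide of glutamate, cysteine and glycine. Glutamate-cysteine ligase (Gclc, catalytic, and Gclm, modifier subunit) makes its precursor and glutathione synthetase (Gss) completes it, the transporter Slc7a11 imports cystine for it, and glutathione reductase (Gsr) restores the oxidised form with NADPH, to which G6pdx contributes. KEAP1 normally sends NRF2 to degradation; oxidants and electrophiles modify KEAP1, and NRF2 then accumulates, pairs with a small MAF protein and binds antioxidant response elements at genes such as Gclm, Txnrd1, Srxn1, Nqo1 and many transferases. Hepatocytes are known as the main glutathione producers of the body, release it into bile and use transferases to detoxify drugs and reactive metabolites.

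The deposited values are FPKM, in which fragments are divided by exon length and a library size. Levels of different genes can thus be compared per length. Reads recovered from these values numbered 15455406 to 20583321 per library. The library size that the values imply was not this read total. It was 8640613, against 16730377 reads, in MPH Sham 3, and 19505955, against 15977840 reads, in Kupffer Sham 2. FPKM summed over all genes to 573878 to 834579 in MPH Sham, 278223 to 320718 in BECs Sham and 267916 to 290042 in Kupffer Sham. Hepatocyte markers summed to 58476 to 141063 FPKM in MPH and to at most 6666 FPKM elsewhere, and biliary markers to 3266 to 4536 FPKM in BECs and to at most 147 FPKM elsewhere. Kupffer markers did not separate their cell type as cleanly, at 3146 to 19119.8 FPKM in Kupffer, 2266 to 10085 FPKM in MPH and 245 to 784 FPKM in BECs, and stellate and fibroblast markers reached 692 to 1873 FPKM in BECs. Endothelial markers summed to 1553 to 1885 FPKM in Kupffer Sham, against 208 to 940 FPKM in MPH Sham and 209 to 284 FPKM in BECs Sham. Kupffer BDL 3 stood apart, with the lowest Kupffer marker sum of its cell type (3146 FPKM, against 13601.0 to 19119.8 FPKM in the other two Kupffer BDL libraries and 8330.3 to 9834 FPKM in Kupffer Sham) and the highest neutrophil marker sum (2442 FPKM). Each group held libraries with and without Y-linked transcripts, which were present in 2 of 3 MPH BDL, 2 of 3 MPH Sham, 1 of 3 BECs BDL, 2 of 3 BECs Sham, 1 of 3 Kupffer BDL and 1 of 3 Kupffer Sham libraries. In bulk RNA, fewer cells of a type and less RNA per cell cannot be told apart. Scaling all libraries to a common sum moved the median log2 fold change of all genes by 0.15 in MPH and by -0.26 in Kupffer. Under it, 64.2% of all called genes were higher after BDL in MPH, 52.4% in BECs and 15.6% in Kupffer, against 45.4%, 38.7% and 38.1% with the deposited scaling.

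**Figure D1:**
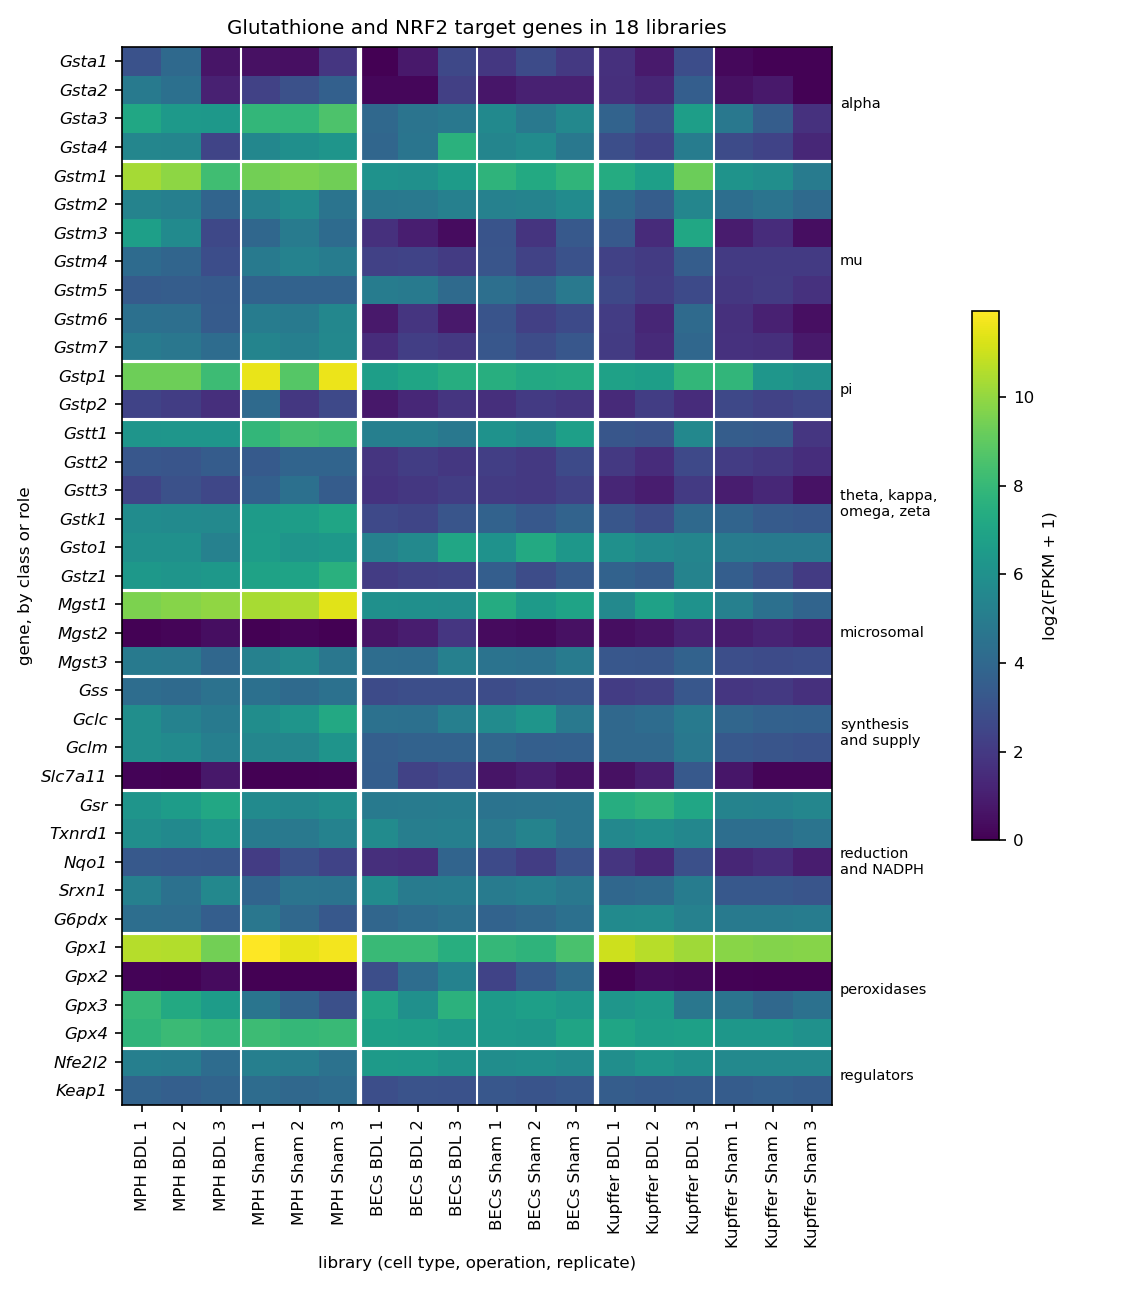
Level of all 37 genes as log2(FPKM + 1) (colour) in the 18 libraries (columns, BDL left of Sham in each cell type), with genes grouped by class or role (rows). Gpx1, Mgst1, Gstm1 and Gstp1 were at the top of the scale in MPH, and Kupffer BDL 3 had 137 FPKM of Gstm3, against 1.79 and 9.07 FPKM in the other two Kupffer BDL libraries.

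In Sham livers most of the transferases were highest in hepatocytes. Of 35 members tested in the 9 Sham libraries, 19 had MPH levels above those of BECs and of Kupffer (21.4% of all 14466 genes tested were), 5 were higher in BECs than in both others (16.0% of all genes) and 0 in Kupffer (13.1% of all genes) by limma at an adjusted p under 0.05. The MPH group was made of 13 transferases (Gsta2, Gsta3, Gstm1, Gstm3, Gstm4, Gstm6, Gstm7, Gstp1, Gstt1, Gstt2, Gstt3, Gstk1 and Gstz1), the microsomal Mgst1, the synthesis genes Gss and Gclm, the peroxidases Gpx1 and Gpx4, and Keap1. The BECs group was Gsta1, Gstm5, the sulfiredoxin gene Srxn1, and the peroxidases Gpx2, an epithelial enzyme, and Gpx3, a secreted one. Among the Sham libraries Gpx2 passed the level filter only through BECs, so its call is given as a description. Outside BECs, Gsta1 reached 1 FPKM in MPH Sham 3 only (2.66 FPKM). Outside MPH, Gsta2 reached it in BECs Sham 2 and BECs Sham 3 only (1.11 FPKM in each). Neither would have passed the filter without its highest cell type, so the calls of Gsta1 and Gsta2 are given as descriptions too. At an unadjusted p under 0.05, 1 member (G6pdx) was higher in Kupffer than in both others, and limma voom on recovered reads called 1. The split depended on scaling: with a common sum it was 11, 8 and 1 members, and with quantile normalization 14, 7 and 2. The shares of all genes under these scalings are not given here.

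The most abundant members per length in Sham MPH were Gpx1 at 3386 ± 530 FPKM, Gstp1 at 2164 ± 1495 FPKM, Mgst1 at 1811 ± 748 FPKM and Gstm1 at 697 ± 46.0 FPKM (SD, n = 3). Mgst1, a membrane-bound transferase that also reduces lipid peroxides, averaged 124 ± 35.3 FPKM in Sham BECs and 22.9 ± 11.3 FPKM in Sham Kupffer libraries, and was called lower than in MPH in both by limma (adjusted p = 4.77e-05 in BECs and adjusted p = 5.92e-06 in Kupffer). Gpx2 was at the other extreme: it was listed at 0 in all 3 MPH Sham libraries, where a count of 0 allows up to 0.07, 0.0737 and 0.108 FPKM, and averaged 10.0 ± 6.08 FPKM in BECs Sham. Gpx3 averaged 14.3 ± 8.71 FPKM in MPH Sham, 94.6 ± 10.8 FPKM in BECs Sham and 19.9 ± 3.84 FPKM in Kupffer Sham. Such floors cover counting error only.

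After ligation few members passed the test in any 1 cell type, and Gstt1 alone was called in more than 1. In MPH, 2 of 34 tested members were called (5.88%, against 1.57% of 12323 genes tested), Gpx3 higher and Gstt1 lower; 0.714% of all genes were called higher and 0.860% lower. In BECs, 7 of 36 were called (19.4%, against 7.66% of 13573 genes), with Slc7a11 higher and the transferases Gstm1, Gstm6, Gstm7, Gstt1, Gstz1 and Mgst1 lower. Of all genes, 2.96% were called higher and 4.70% lower. Slc7a11 passed the level filter only through the BECs BDL libraries, so its call is given as a description. Gstm6 passed it through the BECs Sham libraries, with BDL 2 alone of the BDL libraries above 1 FPKM. Its call is given as a description too. In Kupffer, 2 of 33 were called (6.06%, against 3.88% of 12748 genes), Gsr and Txnrd1, both higher; 1.47% of all genes were called higher and 2.40% lower. The median log2 change of the tested members was -0.41 in MPH, -0.24 in BECs and 0.81 in Kupffer, against -0.06, -0.03 and 0.03 over all genes tested. Positive changes were found for 10 of 34, 11 of 36 and 30 of 33 members in MPH, BECs and Kupffer. At an unadjusted p under 0.05 the counts were 16, 14 and 17 members, beside 2791, 3526 and 3070 of all genes tested. Relative to the median of all genes, the members' median kept its sign in each cell type under all 4 other scalings, from -0.36 to -0.31 in MPH, from -0.29 to -0.20 in BECs and from 0.75 to 0.85 in Kupffer.

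**Figure D2:**
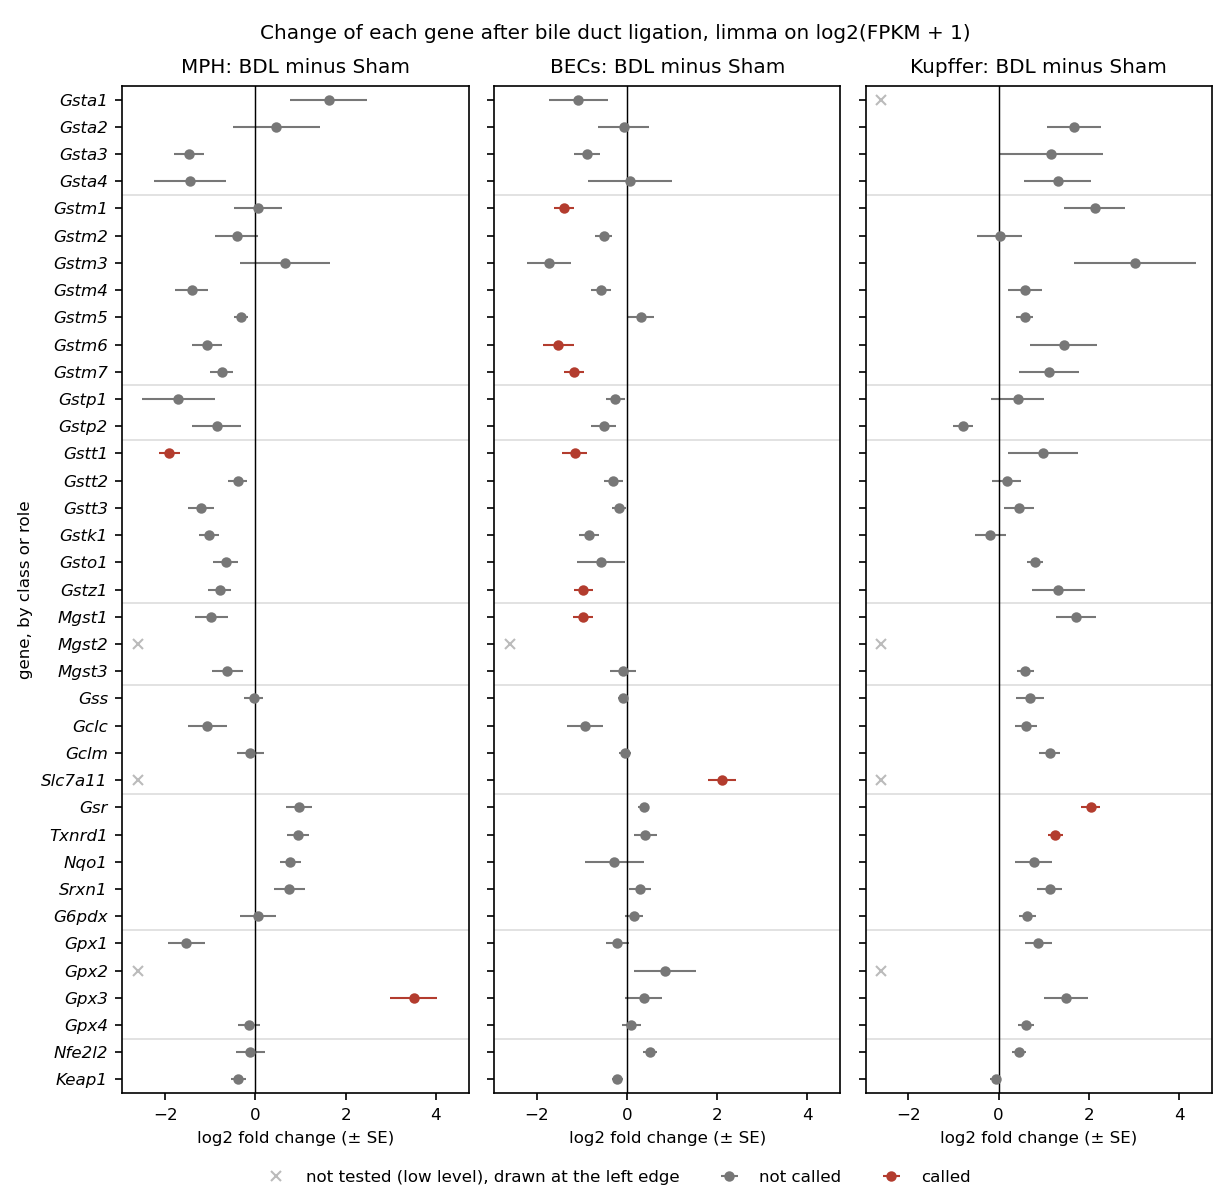
Log2 fold change after BDL relative to Sham (points, with bars of 1 standard error) of the 37 genes (rows) in MPH, BECs and Kupffer, from limma on log2(FPKM + 1); called genes have an adjusted p under 0.05 and untested ones are crosses at the left edge. Most transferases lie left of 0 in MPH and BECs, and 30 of 33 tested genes lie right of 0 in Kupffer.

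These calls rested on few libraries. In MPH no member was called when any 1 of the 6 libraries was left out, with adjusted p from 0.0536 to 0.155 for Gstt1 and from 0.0593 to 0.177 for Gpx3. Calls over the whole table fell as well in these MPH fits, from 194 genes to between 8 and 77. In BECs 0 members were called without Sham 1, Sham 3 or BDL 1, 2 without BDL 2, 4 without BDL 3 and 6 without Sham 2. In the same order, 86, 636, 255, 407, 1033 and 357 genes of the table were called in BECs, against 1040 with all 6 libraries. In Kupffer 0 members, and 0 genes of the whole table, were called without Sham 1, Sham 2, Sham 3 or BDL 2, 2 members without BDL 1, and 8 without BDL 3: Gsr and Txnrd1 plus Gclm, Srxn1, Gsto1, Gpx1, Gpx3 and G6pdx, all higher, when 2272 genes of the table were called. A fit of all 18 libraries in 1 model called 9, 1 and 6 members in MPH, BECs and Kupffer. Its counts over all genes in BECs and Kupffer are not given here. In MPH it called 1926 of 15594 genes, against 194 of 12323 in the fit of the 6 MPH libraries. In MPH it added Gstm4, Gstt3, Gstk1, Gpx1 and Keap1 as lower and Gsr and Txnrd1 as higher, in BECs it kept Slc7a11 alone, and in Kupffer it added Gstm1 (log2 change 2.13, adjusted p = 0.0363), Mgst1 (1.71, adjusted p = 0.0142), Gclm (1.13, adjusted p = 0.0135) and Srxn1 (1.14, adjusted p = 0.0447) as higher. With the presence of Y-linked transcripts as a covariate, a setting chosen after seeing the data, 2, 3 and 0 members were called in MPH, BECs and Kupffer.

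No change of the regulators' own RNA passed the test within a cell type. Nfe2l2 had 34.2, 32.2 and 17.6 FPKM in MPH BDL, against 34.3, 32.9 and 21.9 FPKM in MPH Sham. In BECs it had 88.9, 84.4 and 70.1 FPKM in BDL, against 57.0, 60.4 and 52.9 FPKM in Sham, and in Kupffer 59.6, 77.0 and 63.3 FPKM in BDL, against 47.4, 48.1 and 48.7 FPKM in Sham. All BDL libraries lay above all Sham libraries in BECs and in Kupffer, while the MPH groups overlapped (log2 change 0.50, SE 0.15, adjusted p = 0.0904 in BECs and log2 change 0.45, SE 0.16, adjusted p = 0.159 in Kupffer). Keap1 had 13.1, 11.4 and 13.6 FPKM in MPH BDL, against 17.6, 15.3 and 17.4 FPKM in MPH Sham. In BECs its levels were 6.39, 7.39 and 7.13 FPKM in BDL, against 8.35, 7.57 and 8.88 FPKM in Sham, and in Kupffer 10.4, 9.38 and 10.2 FPKM in BDL, against 10.2, 11.2 and 10.1 FPKM in Sham. Its BDL libraries lay below the Sham libraries in MPH and BECs and overlapped them in Kupffer, and no comparison within a cell type passed the test (adjusted p = 0.259, 0.307 and 0.76 in MPH, BECs and Kupffer). The fit of all 18 libraries called Keap1 lower in MPH (log2 change -0.38, adjusted p = 0.0437). NRF2 activity is set mainly by protein stability, which RNA does not measure.

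Promoter windows from RefSeq (GRCm38.p6), from 250 bases before to 50 bases after each transcript start, were found for 33 members (46 windows) and searched on both strands for TGACNNNGC, the core of the antioxidant response element. The core overlaps in sequence with AP-1 elements. It was found in windows of 9 members (27.3%, against 14% of all 27025 genes with a window): G6pdx, Gclm, Gsta3, Gstm5, Gstm7, Mgst1, Nfe2l2, Srxn1 and Txnrd1. Counted by window, 19.6% of the 46 member windows held it, against 12.4% of all 32851 windows. Txnrd1, Mgst1 and Gstm7 also have windows without a match. A match describes these letters only, and no match says only that they are not in the window. The 4 windows below belong to the members that hold a match and were called in a BDL against Sham comparison or in a difference between such responses. The match stands in capitals, and each window is written 5′ to 3′ on the strand of the gene. It begins 134 bases before the start in Gclm (chr3:122245307-122245606, plus strand), 92 in Txnrd1 (chr10:82858956-82859255, plus strand), 56 in Mgst1 (chr6:138140277-138140576, plus strand) and 129 in Gstm7 (chr3:107931565-107931864, minus strand). In Gstm7 the match reads forward; in the other three it is the reverse complement of the core.
Gclm: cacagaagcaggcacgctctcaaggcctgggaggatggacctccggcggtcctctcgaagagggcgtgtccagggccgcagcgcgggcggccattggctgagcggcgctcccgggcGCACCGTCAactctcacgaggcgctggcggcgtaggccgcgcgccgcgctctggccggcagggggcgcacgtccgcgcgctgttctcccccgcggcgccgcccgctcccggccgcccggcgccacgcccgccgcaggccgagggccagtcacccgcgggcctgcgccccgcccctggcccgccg
Txnrd1: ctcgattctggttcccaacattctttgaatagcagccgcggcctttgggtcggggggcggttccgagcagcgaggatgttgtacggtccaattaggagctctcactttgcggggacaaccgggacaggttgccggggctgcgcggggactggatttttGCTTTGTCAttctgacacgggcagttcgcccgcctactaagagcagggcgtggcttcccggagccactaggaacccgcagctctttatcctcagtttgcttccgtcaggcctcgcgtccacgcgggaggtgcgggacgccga
Mgst1: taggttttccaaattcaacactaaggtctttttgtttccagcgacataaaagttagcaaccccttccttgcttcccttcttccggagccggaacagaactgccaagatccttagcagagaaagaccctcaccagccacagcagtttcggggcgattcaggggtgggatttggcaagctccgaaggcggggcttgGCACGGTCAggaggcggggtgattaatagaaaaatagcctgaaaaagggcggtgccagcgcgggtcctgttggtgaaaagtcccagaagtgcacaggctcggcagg
Gstm7: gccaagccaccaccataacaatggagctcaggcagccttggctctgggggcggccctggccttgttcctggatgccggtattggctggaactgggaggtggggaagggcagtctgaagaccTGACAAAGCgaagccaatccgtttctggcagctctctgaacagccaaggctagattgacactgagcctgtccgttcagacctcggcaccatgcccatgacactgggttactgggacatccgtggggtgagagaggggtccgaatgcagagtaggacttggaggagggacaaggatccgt

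Glutathione reductase rose in the Kupffer-like cells. Gsr had 171, 211 and 133 FPKM in Kupffer BDL, against 39.4, 38.3 and 43.2 FPKM in Kupffer Sham, so that each BDL library held over 3 times the level of each Sham library. It rose 4.11-fold on the log2(FPKM + 1) scale by limma (log2 change 2.04, SE 0.21, adjusted p = 0.0208). The log2 change was 1.88 to 2.21 with each library left out, 1.91 with the hepatocyte marker level as a covariate (adjusted p = 0.925) and 2.04 with Y-linked transcripts as a covariate (adjusted p = 0.0527). MPH had 73.9, 96.0 and 142 FPKM in BDL, against 51.6, 45.8 and 56.0 FPKM in Sham, and BECs 28.1, 30.7 and 31.7 FPKM in BDL, against 22.1, 23.0 and 24.2 FPKM in Sham. In both the BDL libraries lay above the Sham libraries, without passing the test by limma (log2 change 0.96, SE 0.29, adjusted p = 0.122 in MPH and log2 change 0.37, SE 0.12, adjusted p = 0.109 in BECs).

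Txnrd1, the cytosolic thioredoxin reductase and an NRF2 target whose window is printed above, rose in Kupffer as well. Its levels there were 47.2, 57.3 and 44.5 FPKM in BDL, against 18.7, 19.0 and 23.0 FPKM in Sham (log2 change 1.25, SE 0.17, adjusted p = 0.0272), with no overlap. In MPH it had 58.9, 50.5 and 74.4 FPKM in BDL, against 28.1, 27.0 and 38.3 FPKM in Sham, again without overlap but short of the threshold (log2 change 0.95, SE 0.24, adjusted p = 0.0912). A fit of all 18 libraries in 1 model called both Txnrd1 and Gsr in MPH (adjusted p = 0.0159 and 0.00984). In BECs Txnrd1 had 53.8, 33.3 and 34.1 FPKM in BDL, against 27.7, 38.9 and 24.1 FPKM in Sham, and the groups overlapped. Both Kupffer calls were lost with the hepatocyte marker covariate, where Txnrd1 kept a log2 change of 1.23, and without any 1 of the Sham libraries or BDL 2. The covariate, a mean log2 marker level, did not overlap between Kupffer BDL (5.648 to 7.393) and Kupffer Sham (3.707 to 5.03). A fit with it could hardly tell marker level and ligation apart.

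Srxn1 (sulfiredoxin, which repairs over-oxidised peroxiredoxins) had 14.8, 16.2 and 30.9 FPKM in Kupffer BDL, against 8.64, 8.64 and 7.80 FPKM in Kupffer Sham. The groups did not overlap, BDL 3 being the highest, and the change missed the threshold (log2 change 1.14, SE 0.28, adjusted p = 0.0776) but passed it without BDL 3 (log2 change 0.82, adjusted p = 0.0117). MPH had 35.5, 21.1 and 46.2 FPKM in BDL, against 13.3, 23.2 and 22.1 FPKM in Sham, and BECs 53.3, 29.8 and 31.5 FPKM in BDL, against 30.5, 34.2 and 26.4 FPKM in Sham. Both pairs of groups overlapped. Nqo1, the quinone reductase often used as a readout of NRF2, had 9.13, 8.41 and 8.16 FPKM in MPH BDL, against 3.39, 6.63 and 4.25 FPKM in MPH Sham, which did not overlap and did not pass the test (log2 change 0.77, SE 0.24, adjusted p = 0.127). BECs had 2.04, 1.83 and 13.6 FPKM in BDL, against 5.32, 3.43 and 7.07 FPKM in Sham, with overlap and with BECs BDL 3 far above the other two. Kupffer had 2.55, 1.56 and 6.43 FPKM in BDL, against 1.44, 1.88 and 0.923 FPKM in Sham, with overlap and BDL 3 again the highest. G6pdx, which feeds the NADPH pool, ranged from 36.8 to 53.8 FPKM in Kupffer BDL, against 28.8 to 31.3 FPKM in Kupffer Sham (adjusted p = 0.111); its exons overlap those of the antisense-strand gene Ikbkg, and whether counting used strand is not given in the sources used here.

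**Figure D3:**
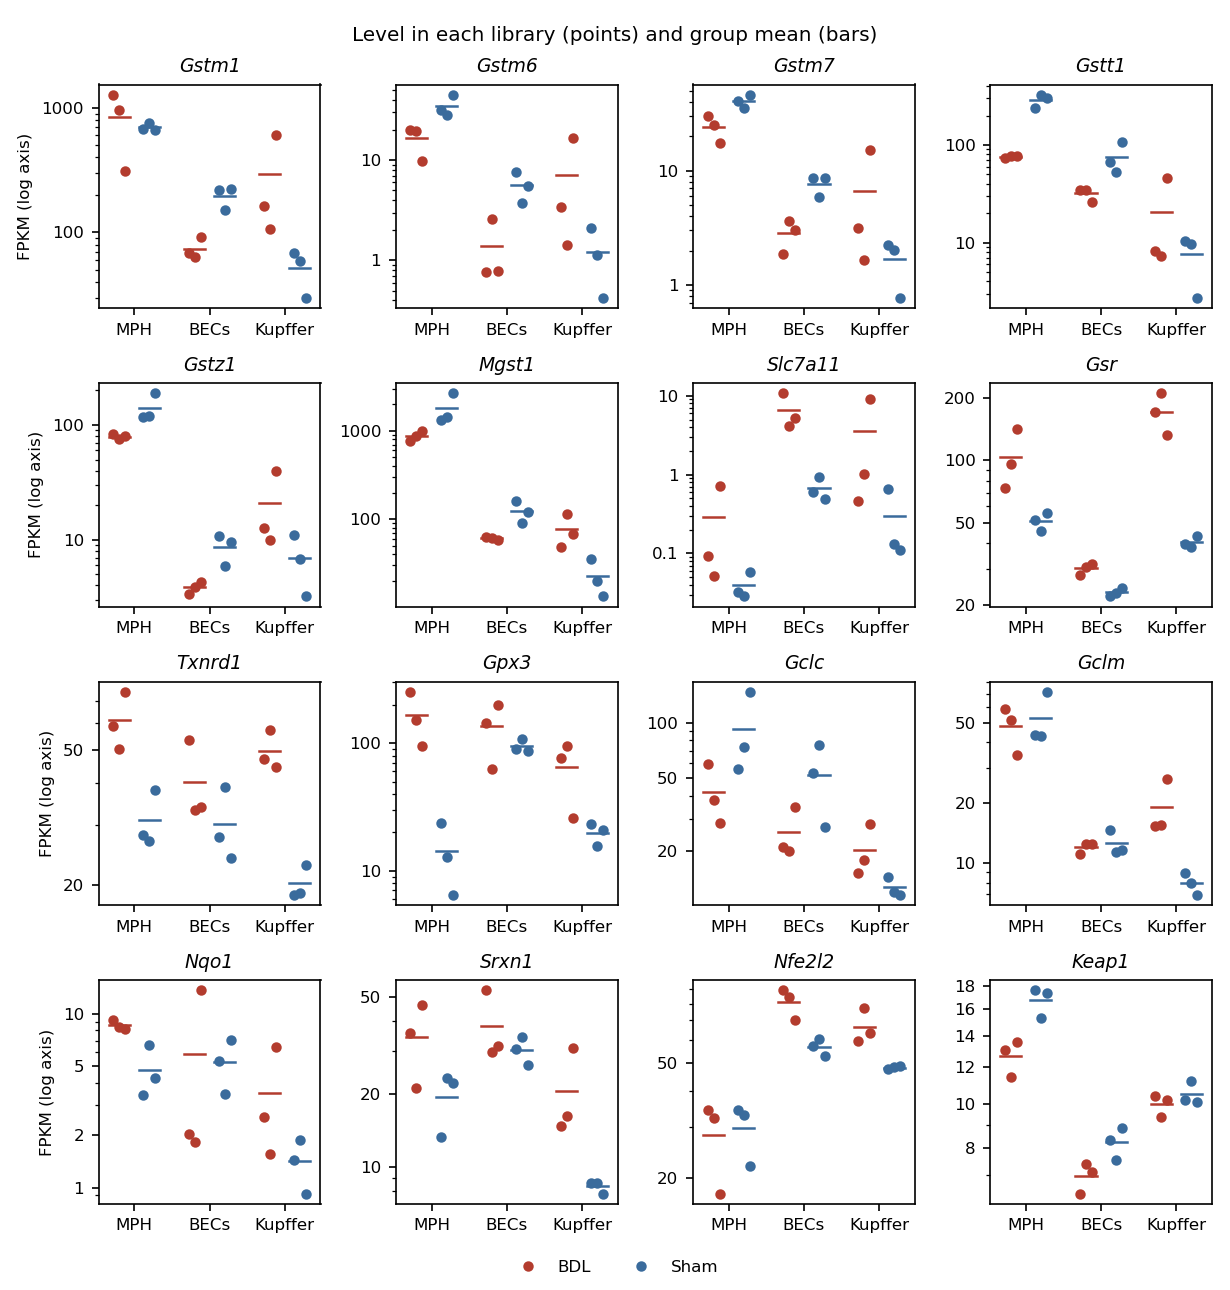
FPKM on log axes of the 10 genes called in any cell type and of 6 further genes of synthesis, reduction and regulation, with 1 point per library and a bar at the mean of each group (BDL left of Sham). Gsr and Txnrd1 in Kupffer, Gpx3 and Gstt1 in MPH and Slc7a11 in BECs show BDL and Sham points that do not overlap.

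The cystine importer was called in the bile duct cells. Slc7a11 had 10.8, 4.09 and 5.17 FPKM in BECs BDL, against 0.600, 0.945 and 0.488 FPKM in BECs Sham, from 1039 to 2758 recovered reads per BDL library, against 130 to 291 reads per Sham library. It rose 4.31-fold on the log2(FPKM + 1) scale (log2 change 2.11, SE 0.31, adjusted p = 0.0175), which understates a gene this low. It passed the level filter only through the BDL libraries, all Sham values being below 1 FPKM, so a gene tested in this way had to differ and its call is given as a description. Without a level filter its adjusted p was 0.068. With 1 Sham library left out the call was kept in 1 of 3 fits (adjusted p from 0.0432 to 0.0745, log2 change 2.03 to 2.22), and with 1 BDL library left out too few libraries reached 1 FPKM for a test. Of the Kupffer libraries, BDL 3 had 9.23 FPKM, while the other two BDL libraries had 0.456 and 1.03 FPKM and the Sham libraries 0.656, 0.133 and 0.110 FPKM. In MPH it was near the detection limit, at 0.0916, 0.0521 and 0.723 FPKM in BDL, against 0.0324, 0.0284 and 0.0582 FPKM in Sham (9 to 108 reads, against 5 to 7 reads), and was not tested in MPH or Kupffer because too few libraries reached 1 FPKM.

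Neither ligase subunit was called by the fits within a cell type. Gclc had 21.1, 19.9 and 34.6 FPKM in BECs BDL, against 53.1, 75.0 and 27.0 FPKM in BECs Sham, and 59.1, 37.8 and 28.4 FPKM in MPH BDL, against 56.1, 73.3 and 147 FPKM in MPH Sham. Both pairs overlapped and neither passed the test (log2 change -0.94, SE 0.39, adjusted p = 0.194 in BECs and log2 change -1.07, SE 0.43, adjusted p = 0.207 in MPH). In Kupffer the levels were 15.2, 17.9 and 27.9 FPKM in BDL, against 14.5, 12.0 and 11.5 FPKM in Sham (adjusted p = 0.198), with no overlap. Gclm had 15.4, 15.5 and 26.2 FPKM in Kupffer BDL, against 8.91, 7.97 and 6.95 FPKM in Kupffer Sham; the groups did not overlap, and the change lay just outside the threshold (log2 change 1.13, SE 0.23, adjusted p = 0.0537). Without BDL 3 it was called (log2 change 0.89, adjusted p = 0.0138). MPH had 58.4, 52.0 and 34.7 FPKM in BDL, against 43.5, 43.3 and 71.5 FPKM in Sham, and BECs 11.1, 12.5 and 12.5 FPKM in BDL, against 14.6, 11.4 and 11.7 FPKM in Sham, all overlapping. Exons of Gclm overlap those of Gm6061 on its own strand and Gm17494 on the other in the annotation. Gss, the synthetase, averaged 18.8 ± 2.94 FPKM in MPH BDL and 19.3 ± 2.70 FPKM in MPH Sham (SD, n = 3), with log2 changes of -0.04, -0.09 and 0.70 in MPH, BECs and Kupffer, none called.

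The transferases, which couple glutathione to electrophiles, made up most of the calls in BECs. Gstm1, the most abundant mu class enzyme, had 67.9, 63.1 and 91.7 FPKM in BECs BDL, against 218, 151 and 224 FPKM in BECs Sham (log2 change -1.40, SE 0.23, adjusted p = 0.021). Gstm7 had 1.88, 3.63 and 3.01 FPKM in BECs BDL, against 8.59, 5.87 and 8.56 FPKM in BECs Sham (log2 change -1.19, SE 0.22, adjusted p = 0.0294). Neither pair overlapped, and both genes fell. Gstm6 had 0.768, 2.62 and 0.782 FPKM in BECs BDL, against 7.72, 3.77 and 5.50 FPKM in BECs Sham. It was lower too, without overlap (log2 change -1.52, SE 0.34, adjusted p = 0.0466). It passed the level filter through the Sham libraries, BDL 2 alone of the BDL libraries being above 1 FPKM, so its call is given as a description. The summed mu class was 131 to 151 FPKM in BECs BDL, against 222 to 336 FPKM in BECs Sham.

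Outside the mu class, Gstz1, a zeta class enzyme that also acts in tyrosine breakdown, had 3.37, 3.90 and 4.30 FPKM in BECs BDL, against 10.7, 5.85 and 9.52 FPKM in BECs Sham (log2 change -0.97, SE 0.22, adjusted p = 0.0444). Exons of Gstz1 overlap those of Pomt2 and Gm6566 on the other strand, and whether counting used strand is not given in the sources used here. Mgst1 had 63.3, 60.5 and 58.1 FPKM in BECs BDL, against 161, 90.2 and 121 FPKM in BECs Sham (log2 change -0.98, SE 0.22, adjusted p = 0.0449). Gstt1, a theta class enzyme, had 34.8, 34.5 and 26.3 FPKM in BECs BDL, against 67.4, 52.6 and 106 FPKM in BECs Sham (log2 change -1.16, SE 0.27, adjusted p = 0.0476). All 3 fell, with every BDL library below every Sham library. Each of the 6 transferase calls in BECs was lost in 3 to 6 of the 6 fits that left out 1 library.

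Hepatocyte markers moved in the same direction in the same libraries. Their sum was 302 to 1014 FPKM in BECs BDL, against 2227 to 4564 FPKM in BECs Sham; 16 of 16 markers had negative changes, 3 of them called (Ambp, Ttr and Serpinc1), and none was at 0 in all libraries of a group. The mean log2 marker level did not overlap between BECs BDL (2.978 to 4.824) and BECs Sham (5.417 to 6.356). A fit with it as a covariate could hardly tell marker level and ligation apart. With this covariate, 14 genes of the whole table and 1 member were called in BECs, Gsta1 (log2 change -3.69, adjusted p = 0.0465), whose sequence is largely shared with its paralogs. Of the BECs BDL libraries BDL 3 alone reached 1 FPKM of Gsta1 (5.03 FPKM), so this call is given as a description. In that fit the log2 changes of Gstm1, Gstm7 and Gstm6 were -1.53, -1.29 and -1.03 (adjusted p = 0.196, 0.245 and 0.549), and those of Gstz1, Gstt1 and Mgst1 were -0.84, -0.56 and -0.53 (adjusted p = 0.452, 0.677 and 0.637). Slc7a11 had a log2 change of 2.64 (adjusted p = 0.112). Endothelial markers were also lower in BECs BDL (8 of 11 called; 84.5 to 137 FPKM in BDL, against 209 to 284 FPKM in Sham) and neutrophil markers higher (5 of 8 tested called; 318 to 473 FPKM in BDL, against 38.3 to 134 FPKM in Sham). Monocyte markers summed to 166 to 354 FPKM in BECs BDL, against 118 to 128 FPKM in BECs Sham (7 of 8 positive, with Itgam and F13a1 called higher), and stellate and fibroblast markers to 1069 to 1873 FPKM, against 692 to 1145 FPKM (0 of 12 called by limma, 4 at an unadjusted p under 0.05). The part of endothelial, neutrophil, monocyte and stellate markers in the result was not tested.

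**Figure D4:**
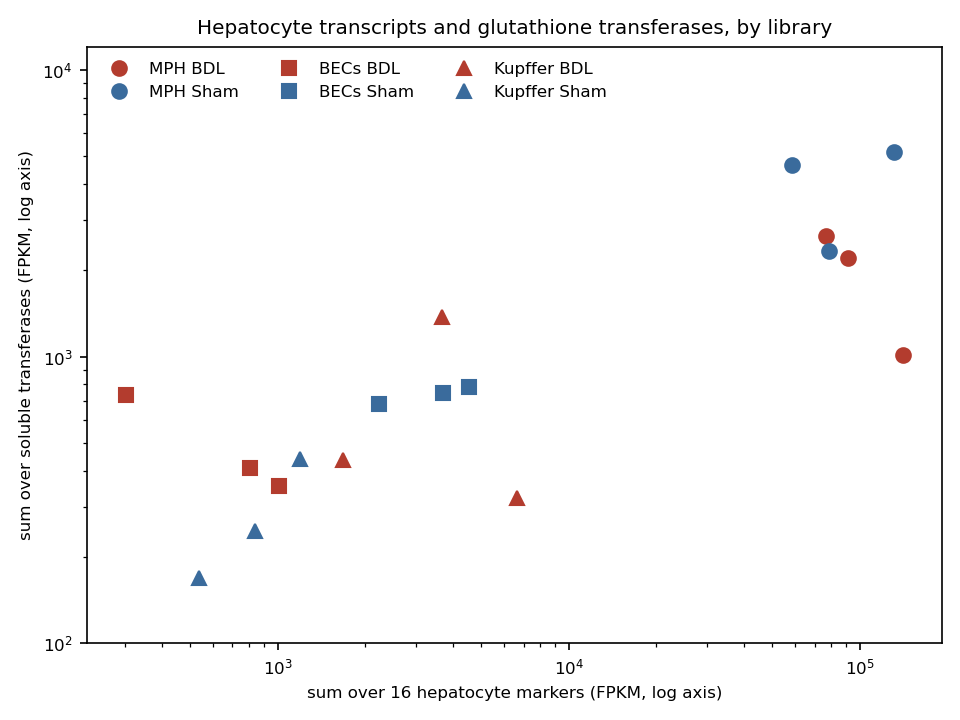
Sum of 16 hepatocyte markers (x, FPKM, log axis) against the sum of the 19 soluble transferases (y, FPKM, log axis) in the 18 libraries, by cell type (shape) and operation (colour). BECs BDL libraries lie left of BECs Sham libraries (302 to 1014 against 2227 to 4564 FPKM), and Kupffer BDL libraries lie right of Kupffer Sham libraries (1681 to 6666 against 539 to 1190.1 FPKM).

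In Kupffer no transferase was called by the fit of its own 6 libraries, most were higher in the BDL libraries, and 1 library had the highest level of most. Gstm1 had 163, 107 and 606 FPKM in Kupffer BDL, against 68.2, 58.8 and 29.9 FPKM in Kupffer Sham, without overlap and without passing the test (log2 change 2.13, SE 0.68, adjusted p = 0.135). Mgst1 had 48.0, 113 and 67.8 FPKM in Kupffer BDL, against 13.3 to 35.4 FPKM in Kupffer Sham, also without overlap (log2 change 1.71, SE 0.44, adjusted p = 0.0846). Gstt1 had 8.12, 7.21 and 46.0 FPKM in Kupffer BDL, against 10.4, 9.70 and 2.72 FPKM in Kupffer Sham, where BDL 3 alone lay above all Sham libraries. The same library stood above both others for Gstz1 (12.7, 10.0 and 39.5 FPKM in BDL, against 11.0, 6.80 and 3.21 FPKM in Sham), for Gstm6 (3.40, 1.42 and 16.6 FPKM in BDL, against 2.10, 1.13 and 0.423 FPKM in Sham) and for Gstm7 (3.17, 1.64 and 15.0 FPKM in BDL, against 2.23, 2.02 and 0.772 FPKM in Sham). Kupffer BDL 3 was the highest of its group for 21 of the 32 members above 1 FPKM in all 3 libraries. Such a count was not particular to this library. Of 33 such members in MPH BDL, BDL 1 was the highest for 21 and BDL 3 the lowest for 22. The Gstm3 level of 137 FPKM in Kupffer BDL 3 was above that of every MPH library, the highest of which had 106 FPKM.

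Hepatocyte markers summed to 1681 to 6666 FPKM in Kupffer BDL, against 539 to 1190.1 FPKM in Kupffer Sham, with 16 of 16 positive changes and 0 called by limma (12 at an unadjusted p under 0.05). In Kupffer BDL 3 the sum was 3661 FPKM, between those of BDL 1 (1681 FPKM) and BDL 2 (6666 FPKM), and BDL 2 had the lowest transferase sum of the 3 (322 FPKM, against 1375 FPKM in BDL 3). The markers did not share 1 order. In BDL 1, BDL 2 and BDL 3, Ass1 had 99.1, 44.2 and 493 FPKM and Pck1 65.4, 153 and 246 FPKM. Tdo2 had 26.3, 19 and 33.8 FPKM and Apoc3 36.8, 111 and 136 FPKM. These were highest in BDL 3, and the other markers of the list in BDL 2. With the hepatocyte covariate, whose levels did not overlap between BDL and Sham, 0 members and 0 genes of the whole table were called in Kupffer. Neutrophil markers summed to 877 to 2442 FPKM in Kupffer BDL, against 329 to 365 FPKM in Kupffer Sham (3 of 8 tested called higher), and endothelial markers to 439 to 1202 FPKM, against 1553 to 1885 FPKM (4 of 11 called lower). Monocyte markers summed to 692 to 863 FPKM in Kupffer BDL, against 256 to 563 FPKM in Kupffer Sham (2 of 8 called higher). Stellate and fibroblast markers summed to 164 to 262 FPKM in Kupffer BDL, against 48.3 to 114 FPKM in Kupffer Sham, with 7 of 12 positive and Acta2 called higher (adjusted p = 0.0272). No marker of these lists was at 0 in all libraries of a group, and the part of these other cells in the result was not tested.

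In hepatocytes the called transferase was Gstt1, with 73.2, 76.4 and 76.4 FPKM in MPH BDL, against 236, 327 and 304 FPKM in MPH Sham. It fell, with no overlap between the groups (log2 change -1.91, SE 0.23, adjusted p = 0.0233). Mgst1 had 762, 874 and 997 FPKM in MPH BDL, against 1330.3, 1429.7 and 2672 FPKM in MPH Sham, and Gstz1 82.8, 74.8 and 80.2 FPKM in BDL, against 117, 119 and 189 FPKM in Sham. Neither overlapped and neither passed the test (adjusted p = 0.175 and 0.146). Gstm6 had 20.2, 19.7 and 9.88 FPKM in MPH BDL, against 31.5, 28.6 and 45.2 FPKM in MPH Sham, and Gstm7 29.8, 25.2 and 17.5 FPKM in BDL, against 40.2, 35.1 and 46.1 FPKM in Sham, both without overlap and not called. Gstm1 differed in this: MPH BDL had 1275, 960 and 314 FPKM, against 681, 749 and 661 FPKM in MPH Sham, with BDL 1 and BDL 2 above and BDL 3 below all Sham libraries. The hepatocyte marker sum was 76863 to 141063 FPKM in MPH BDL, against 58476 to 131046 FPKM in MPH Sham (0 of 16 called), and with the mean marker level as a covariate the log2 change of Gstt1 was -1.96 (adjusted p = 0.0414).

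The alpha class varied widely between libraries of a group. In MPH, Gsta3, its most abundant member, averaged 103 ± 31.5 FPKM in BDL and 286 ± 89.7 FPKM in Sham (SD, n = 3), without overlap and without a call (log2 change -1.46, SE 0.33, adjusted p = 0.0765). Gsta4, which handles lipid peroxidation products, ranged from 4.42 to 43.0 FPKM in MPH BDL, against 45.0 to 73.3 FPKM in MPH Sham, and in BECs BDL from 14.3 to 194 FPKM, against 26.3 to 53.8 FPKM in BECs Sham, with BECs BDL 3 at the top. Gsta2 and Gstm3 were low in MPH BDL 3 (1.11 and 5.05 FPKM) and high in MPH BDL 1 and MPH BDL 2 (28.2 and 20.3 FPKM of Gsta2, 106 and 52.0 FPKM of Gstm3), against 4.09 to 11.6 FPKM of Gsta2 and 14.7 to 30.3 FPKM of Gstm3 in MPH Sham. MPH BDL 3 carried no Y-linked transcripts, while BDL 1 and BDL 2 did. MPH Sham 2, which also carried none, had the highest Gstm3 of the Sham group (30.3 FPKM, against 14.7 and 17.0 FPKM in the other two) and a middle level of Gsta2 (6.80 FPKM). Gsta1 and Gsta2 share 90.5% and 49.8% of their 50-base stretches with other genes, and Gstm3 28.8%, so the split of reads among such copies is uncertain.

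Among the remaining transferases, Gstm4, Gstt3 and Gstk1 had log2 changes of -1.42, -1.21 and -1.03 in MPH (adjusted p = 0.0925, 0.0835 and 0.07) and were called when all 18 libraries were fitted in 1 model. Gsto1, an omega class enzyme, averaged 51.7 ± 10.5 FPKM in Kupffer BDL and 28.7 ± 1.12 FPKM in Kupffer Sham (log2 change 0.81, SE 0.18, adjusted p = 0.0623) and was called without BDL 3. Gstm2, Gstm5, Gstp2, Gstt2 and Mgst3 were called in no cell type by limma with the deposited scaling; with a common sum Gstp2 was called lower in Kupffer (log2 change -1.05, adjusted p = 0.0368). With the deposited scaling the log2 changes of these 5 ran from -0.86 to 0.59. Mgst2 was at most 2.74 FPKM in any library and was not tested in any BDL against Sham comparison.

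Gstp1, the pi class transferase, varied most inside the Sham group of MPH. It had 628, 638 and 288 FPKM in MPH BDL, against 2948, 440 and 3104 FPKM in MPH Sham, and the change did not pass the test (log2 change -1.71, SE 0.80, adjusted p = 0.263). MPH Sham 2, the low Sham library, carried no Y-linked transcripts, nor did MPH BDL 3, the lowest BDL library. Among libraries with Y-linked transcripts the levels were 628 and 638 FPKM in BDL, against 2948 and 3104 FPKM in Sham, and among those without, 288 FPKM in BDL, against 440 FPKM in Sham. Higher Gstp1 in male than in female liver is known in mice. Of the Sham Kupffer libraries, the 1 with Y-linked transcripts had 234 FPKM and the others 75.9 and 61.8 FPKM. The order differed elsewhere: in Kupffer BDL the library with Y-linked transcripts had 112 FPKM and the others 102 and 235 FPKM, and in BECs BDL it had 104 FPKM, the lowest of its group, and the others 130 and 172 FPKM. In BECs Sham the libraries with Y-linked transcripts had 179 and 145 FPKM and the 1 without had 155 FPKM. Gstp1 shares 33.7% of its 50-base stretches with Gstp2 and Gstp-ps, and Gstp2 was at most 16.7 FPKM in any library.

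**Figure D5:**
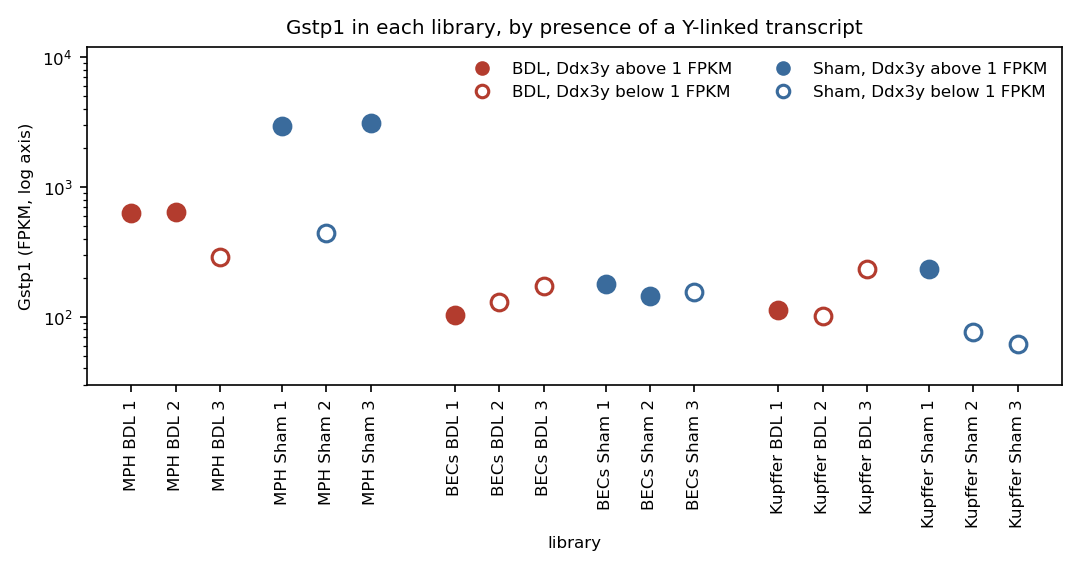
Gstp1 in FPKM (log axis) in each of the 18 libraries, BDL left of Sham in each cell type; filled points carry the Y-linked transcript Ddx3y above 1 FPKM and open points do not. In MPH Sham the filled points are at 2948 and 3104 FPKM and the open one at 440 FPKM.

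Of the peroxidases, Gpx3 was called in hepatocytes. Gpx3, the secreted plasma peroxidase, had 253, 152 and 95.3 FPKM in MPH BDL, against 23.7, 12.8 and 6.45 FPKM in MPH Sham. Every BDL library lay above every Sham library, and Gpx3 rose 11.4-fold on the log2(FPKM + 1) scale (log2 change 3.51, SE 0.52, adjusted p = 0.0365). In Kupffer it had 76.1, 94.3 and 25.8 FPKM in BDL, against 23.1, 15.6 and 20.9 FPKM in Sham, with BDL 3 close to the Sham libraries (log2 change 1.49, SE 0.49, adjusted p = 0.139); without BDL 3 it was called (log2 change 2.05, adjusted p = 0.00589). BECs had 144, 62.5 and 200 FPKM in BDL, against 90.5, 107 and 86.3 FPKM in Sham, which overlapped. Stellate and fibroblast markers summed to 188 to 358 FPKM in MPH BDL, against 73.1 to 168 FPKM in MPH Sham (0 of 12 called), biliary markers to 72.6 to 98.3 FPKM, against 26.9 to 54.0 FPKM (1 of 6 tested called higher), and monocyte markers to 371 to 531 FPKM, against 194 to 254 FPKM (2 of 7 tested called higher), and their part in the result was not tested.

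Gpx1, the main cytosolic peroxidase, ranged from 663 to 1566 FPKM in MPH BDL, against 2865 to 3925 FPKM in MPH Sham, with no overlap, and did not pass the test (log2 change -1.53, SE 0.41, adjusted p = 0.0987); the fit of all 18 libraries called it lower (adjusted p = 0.00937). In Kupffer the order was the opposite, at 1189 to 2109 FPKM in BDL, against 832 to 894 FPKM in Sham, again without overlap (log2 change 0.88, SE 0.30, adjusted p = 0.146); it was called without BDL 3 (adjusted p = 0.0138). Gpx4, which reduces lipid peroxides in membranes, averaged 244 ± 29.9 FPKM in MPH BDL and 270 ± 20.5 FPKM in MPH Sham, 101 ± 11.5 FPKM in BECs BDL and 95.8 ± 23.8 FPKM in BECs Sham, and 114 ± 13.5 FPKM in Kupffer BDL and 74.9 ± 8.07 FPKM in Kupffer Sham (SD, n = 3 each), with no call. Gpx4 shares 34.7% of its 50-base stretches with other loci, Gpx4-ps2 among them. Gpx2 ranged from 6.30 to 38.1 FPKM in BECs BDL, against 4.30 to 16.4 FPKM in BECs Sham, and was at most 0.292 FPKM in any MPH or Kupffer library.

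The difference of the response between cell types was tested directly. Between BECs and Kupffer it passed the test for 4 of 37 members (10.8%, against 3.50% of 14874 genes, 1.34% with a higher and 2.15% with a lower response in BECs): Gstm1 (log2 difference -3.53, SE 0.77, adjusted p = 0.0386), Mgst1 (log2 difference -2.70, SE 0.53, adjusted p = 0.0306), Gsr (log2 difference -1.67, SE 0.23, adjusted p = 0.0146) and Gclm (log2 difference -1.18, SE 0.27, adjusted p = 0.0457), all with the BECs response below the Kupffer response. Gsr alone kept its call with each of the 12 libraries left out (adjusted p from 0.000757 to 0.0485). Gstm1 kept it in 4 of 12 such fits, Mgst1 in 5 and Gclm in 2, and the count of members ran from 1 to 9, the highest without Kupffer BDL 3. Without that library the difference for Gstm1 was -2.80.

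Between MPH and BECs, 0 of 36 members passed (1.60% of 14780 genes did, 0.886% with a higher and 0.717% with a lower response in MPH). At an unadjusted p under 0.05 there were 6 members and 2632 of all genes, and limma voom called 0 members. Gpx3 (log2 difference 3.14, adjusted p = 0.0612) and Slc7a11 (-1.84, adjusted p = 0.0577) came nearest. Slc7a11 passed the level filter here only through the BECs BDL libraries, so its values are given as a description. Without MPH BDL 3, 3 members passed (Gstm1, Gstm3 and Slc7a11), and without BECs BDL 3, Nqo1. Between MPH and Kupffer, 0 of 34 passed (0.404% of 14101 genes did, 0.0426% with a higher and 0.362% with a lower response in MPH). At an unadjusted p under 0.05 there were 18 members and 2683 of all genes, and voom called 0 members. With the title numbers that MPH and Kupffer libraries share as a replicate block, 4 members passed: Gpx1 (-2.39), Mgst1 (-2.56), Gsto1 (-1.45) and Gstm5 (-0.88), with the MPH response below the Kupffer response in each, and 469 genes of the table, against 57 without the block. Without Kupffer BDL 3, Gpx1 and Gsto1 passed. These 3 differences share libraries and are not independent of each other.

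Other genes of the pathway were counted as fixed lists. Of 28 other NRF2 targets, 1 of 28 tested was called in MPH (Osgin1, log2 change -1.99), 5 of 28 in BECs and 1 of 26 in Kupffer, against the shares of 1.57%, 7.66% and 3.88% of all genes. All 5 in BECs were lower, and the 4 with the smallest adjusted p were Ces1g (-2.35), Ephx1, the microsomal epoxide hydrolase (-0.89), catalase Cat (-1.17) and Osgin1 (-0.93). Ces1g passed the level filter only through the BECs Sham libraries, so its call in BECs is given as a description. In Kupffer it was Idh1, a source of cytosolic NADPH (0.89, higher). Median log2 changes of this list were -0.26, -0.16 and 0.55 in MPH, BECs and Kupffer.

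Of 10 other NRF2 regulators, all tested, the small MAF partner Maff was called higher in Kupffer (0.91), and none in MPH or BECs. At an unadjusted p under 0.05 by limma there were 4 in MPH and 3 in BECs, beside 2791 of 12323 and 3526 of 13573 genes. The MPH response was above the BECs response for Mafk and Maff (differences of 1.71 and 1.68), and the BECs response below the Kupffer response for both (-1.21 and -1.54). Maff averaged 200 ± 15.5 FPKM in BECs BDL and 310 ± 35.6 FPKM in BECs Sham, and 10.7 ± 3.21 FPKM in MPH BDL and 4.53 ± 1.04 FPKM in MPH Sham (SD, n = 3 each).

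Among 16 other transferases, peroxidases and glutaredoxins, Hagh, a glyoxalase that releases glutathione, fell in MPH (-1.78), and Alox5ap, the leukotriene partner protein of myeloid cells, rose in BECs (1.29) and Kupffer (1.37). No other gene of the list was called (12, 13 and 12 tested in MPH, BECs and Kupffer). Among 23 genes of glutathione breakdown and cysteine supply, Ggct (-1.26) and Cbs, cystathionine beta-synthase (-1.51), fell in MPH. In BECs Cbs (-2.16), the aminopeptidase Anpep (-1.02) and the oxoprolinase Oplah (-0.65) fell, and in Kupffer the methionine adenosyltransferase Mat1a, a hepatocyte enzyme, rose (3.45). The tested genes of this list numbered 20, 22 and 18, and its median log2 change was 0.02, -0.49 and 0.71 in MPH, BECs and Kupffer.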

How the data were processed

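RNA from 18 libraries was measured by polyA RNA sequencing, per the labels, after TRIzol extraction and with a VAHTS Universal V6 kit. Per the submitters' processing notes, CASAVA 1.8, fastp, HISAT2 2.0.5, featureCounts 1.5.0-p3 and DESeq2 1.20.0 were used with a mouse GRCm38 (mm10) build; for the annotation release and the strand setting of the counting, the entry is: not given in the sources used here. The values the authors deposited are FPKM per gene. Whole reads could be recovered from them (97.35 to 98.36% of values below 200 reads were whole within 0.02), giving 15455406 to 20583321 reads per library.

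Genes with at least 1 FPKM in at least 3 libraries of a fit were tested with limma 3.58.1 (R 4.3.3) on log2(FPKM + 1), with a trended and robust eBayes, 2-sided, and Benjamini-Hochberg adjustment over all genes of the fit; called means an adjusted p under 0.05. Each BDL against Sham comparison used its 6 libraries, each difference between responses 12, and the Sham comparison the 9 Sham libraries. Fold changes on this scale understate changes of low genes. The fit was tested on simulated data, where it recovered most changed genes with the right sign, and where the share of false calls among its calls was above the nominal level in all 3 BDL against Sham designs, so calls near the threshold are less secure than their adjusted p states. Library numbers name samples and carry no order. Title numbers 2140, 2136 and 1957 are shared between an MPH and a Kupffer library. Deviations of same-numbered libraries from their group means correlated (0.324, 0.213 and 0.299 over 15594 genes). Libraries of different numbers were not compared in this way, and same-numbered libraries also matched in the presence of Y-linked transcripts. The labels do not say that a number is a mouse. The numbers served as pairs in the replicate block only, fitted by statmod 1.5.0. No number is shared between BDL and Sham, or with BECs. No 2 replicates agreed within sampling noise (chi-square per degree of freedom 18.5 to 240).

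The members and lists were chosen with earlier results of these data known. The value in every library, or in 1 group the lowest and highest, is given for members called in a BDL against Sham comparison and for Nfe2l2, Keap1, Nqo1, Gclc, Gclm, Srxn1, Slc7a11 and Txnrd1; the others are given by means, ranges and counts, and for each other list up to 4 called genes with the smallest adjusted p are named. Alternatives covered pseudocounts (0.1 and 0.01), level filters (none and 5 FPKM), 3 other scalings, a plain eBayes, limma voom on recovered reads, all 18 libraries in 1 model, marker covariates, the replicate block and each library left out.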

Additional observations from a re-analysis of the deposited data

Results flagged for a closer look

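The response to ligation differed between BECs and Kupffer, by a test of the difference itself, for 4 members. The log2 difference (BECs minus Kupffer, limma) was -3.53 for Gstm1, -2.70 for Mgst1, -1.67 for Gsr and -1.18 for Gclm. In the fits within a cell type, Gstm1 and Mgst1 fell in BECs and were higher in every Kupffer BDL library without a call, Gsr rose in Kupffer, and Gclm was called in neither. Hepatocyte markers differed in the same direction between these responses (16 of 16 negative, 11 called, median log2 difference -4.17), and their part in the 4 differences was not tested.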

How the results depend on the processing

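Directions of all called members were the same under every alternative run; 60 of 1685 pairs of an uncalled member and a setting changed sign. Counts of called members that moved by over 1.5 times were as follows. Without a level filter, 0 members were called in MPH, BECs and Kupffer and in BECs minus Kupffer, and in the Sham comparison 2 in BECs and 1 in Kupffer; with a filter of 5 FPKM, 3 in BECs in the Sham comparison. With a common sum, 1 was called in MPH, 4 in BECs, 1 in MPH minus BECs, 2 in BECs minus Kupffer, and 11, 8 and 1 in MPH, BECs and Kupffer in the Sham comparison. Quantile normalization gave 1 in MPH minus BECs, 2 in BECs minus Kupffer and 2 in Kupffer in the Sham comparison, and median ratio scaling 3 in BECs. Voom gave 1 in MPH, 2 in BECs minus Kupffer and 1 in Kupffer in the Sham comparison. A pseudocount of 0.01 gave 1 in MPH, and a plain eBayes 1 in MPH minus Kupffer. All 18 libraries in 1 model gave 9 in MPH (with 1926 of 15594 genes called), 1 in BECs and 6 in Kupffer. The hepatocyte marker covariate gave 1 in BECs and 0 in Kupffer. The covariate of Y-linked transcripts, chosen after seeing the data, gave 3 in BECs, 0 in Kupffer and 1 in BECs minus Kupffer. With the replicate block, 4 were called in MPH minus Kupffer and 1 in Kupffer in the Sham comparison; it moved no other count of called members by over 1.5 times. Values under the covariates are given beside the results, and the cause of these moves was not tested.

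Leaving out 1 library at a time gave 0 to 0 members in MPH, 0 to 6 in BECs, 0 to 8 in Kupffer, 0 to 3 in MPH minus BECs, 0 to 2 in MPH minus Kupffer and 1 to 9 in BECs minus Kupffer. In the Sham comparison it gave 19 to 20 in MPH, 2 to 5 in BECs and 0 to 1 in Kupffer. Each group has 3 libraries, and a member that missed the threshold is not shown to be unchanged.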
